A study of Mus musculus with 36 samples.

Results

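The 10 genes of de novo fatty acid synthesis described here were Acly, Acss2, Acaca, Acacb, Fasn, Me1, Elovl6, Scd1, Srebf1 and Thrsp. They were chosen by name as the enzymes of the pathway and its transcriptional regulators, with earlier results of these data known. All 10 were found once in the liver tables, among 24066 gene symbols listed on a single row, and all 10 were among the 13215 genes expressed highly enough to be tested. Expression was measured by RNA sequencing of polyadenylated liver RNA from wild-type male C57BL/6JRj mice, 16 weeks old, under a light/dark cycle in which Zeitgeber time 0 (ZT0) is lights on. Mice of the intermittent hypoxia (IH) group, a model of sleep apnea, underwent 60 cycles per hour between 5% and 21% inspired oxygen from ZT0 to ZT8 every day for 4 weeks, and control mice received air-to-air cycles in the same pattern. Each of 6 times of day, spaced 4 h apart, was sampled with 3 mice per condition, so the 36 libraries, 18 per condition, each came from a different mouse. Levels are given as FPKM (fragments per kilobase of transcript, scaled to the sequenced fragments), a unit in which genes can be set side by side.

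De novo fatty acid synthesis turns surplus carbohydrate into fat, and the liver is one of its main sites. Citrate leaves the mitochondrion and is cleaved to cytosolic acetyl-CoA, carboxylation gives malonyl-CoA, and fatty acid synthase joins the units into palmitate with reducing power from NADPH, after which elongation and desaturation yield stearate and oleate. In nocturnal rodents the pathway follows feeding and the clock, and it is under transcriptional control by insulin through SREBP-1c, by glucose through ChREBP and by liver X receptors.

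Averaged over the day, all 10 genes had a higher fitted level under IH than in control, as did 68.5% of all tested genes. The genes for ATP citrate lyase (Acly), fatty acid synthase (Fasn) and the palmitate elongase (Elovl6) passed the test across all genes, with levels 1.49-fold, 1.67-fold and 1.35-fold those of control. These 3 of 10 compare with 0.303% of the tested genes that were called higher in IH by the same rule, which is an adjusted p under 0.05 from limma, Benjamini-Hochberg adjusted over all tested genes. The remaining 7 genes had positive differences with adjusted p from 0.0659 to 0.463. Counting instead by an unadjusted p under 0.05, all but Scd1 were higher in IH (9 of 10), against 8.44% of the tested genes. Since the list was chosen with earlier results of these data known, these shares describe it and do not test it. The median log2 difference was 0.45 over the 10 genes and 0.03 over all tested genes. A 24-h cosine passed a nominal P of 0.01 for 7 of the 10 genes in control, against 20.0% of tested genes. In IH it passed for 9 of 10, against 39.9%. The test of a different rhythm under IH was passed by none of the 10 and by 0% of tested genes.

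Genes of the pathway are known to share promoter elements, so the bases before the transcription start of the 3 genes that passed are shown with the motif matches found in them. The sequences come from RefSeq promoter windows on GRCm38.p6, the assembly named mm10, which run from 250 bases before the start to 50 after it. For 9 of the 10 genes a window was found, 12 windows in all, since Me1 and Srebf1 have several starts. Capitals mark matches on either strand to CCAAT (the NF-Y box), GGGCGG (the SP1 box) or ACGTG (the core of the hypoxia response element). Each line gives the 250 bases before the start, on the strand of the gene, at chr11:120824548-120824797 (minus strand) for Fasn, chr11:100528001-100528250 (minus strand) for Acly and chr3:129532136-129532385 (plus strand) for Elovl6.
Fasn: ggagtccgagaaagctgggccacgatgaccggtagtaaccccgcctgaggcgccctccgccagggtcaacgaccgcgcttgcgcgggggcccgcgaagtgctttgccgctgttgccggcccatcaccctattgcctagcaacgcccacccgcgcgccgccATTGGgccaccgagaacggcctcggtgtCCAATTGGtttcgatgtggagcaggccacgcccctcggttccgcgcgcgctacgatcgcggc
Acly: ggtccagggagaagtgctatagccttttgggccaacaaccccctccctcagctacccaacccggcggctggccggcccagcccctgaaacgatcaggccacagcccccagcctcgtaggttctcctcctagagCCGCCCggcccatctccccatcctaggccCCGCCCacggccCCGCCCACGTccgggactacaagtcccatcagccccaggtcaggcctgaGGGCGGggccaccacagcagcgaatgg
Elovl6: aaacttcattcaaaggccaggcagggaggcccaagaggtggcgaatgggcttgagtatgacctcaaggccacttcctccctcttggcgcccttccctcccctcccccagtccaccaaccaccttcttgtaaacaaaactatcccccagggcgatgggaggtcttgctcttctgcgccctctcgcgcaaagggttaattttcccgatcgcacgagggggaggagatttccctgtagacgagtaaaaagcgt

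The Fasn window held 3 CCAAT matches, between positions -90 and -55 counted from the start, and the last 2 of them overlap. In the Acly window, GGGCGG matched 4 times between -117 and -22, and an ACGTG match at -71 to -67 shares a base with one of these, while CCAAT matched 38 to 42 bases after the start, outside the line shown. No capital appears in the Elovl6 line, whose window held a single ACGTG at 10 to 14 bases after the start. Over the 12 windows, CCAAT was found in 8, GGGCGG in 5 and ACGTG in 4. The same letters were found in 37.4%, 35.7% and 19.6% of all 32851 promoter windows. TCACNCCAC (the SREBP core), CACGTG (the E-box, which contains ACGTG) and TGACGTCA (the CREB site) matched none of the 12 windows, and they were found in 1.24%, 7.15% and 1.79% of all windows. Only exact letters were searched, so variant forms of these sites were not looked for, and no match does not mean no site. Matches are a description of the letters in these windows and were not tested against the expression values. In GENCODE coordinates on the same assembly, Fasn lies at chr11:120805846-120824547, Acly at chr11:100476353-100528000 and Elovl6 at chr3:129532355-129638495. The windows of Acaca (chr11:84195188-84195487) and Acacb (chr5:114165268-114165567) lie inside those genes, which start at 84129672 and 114146535 (plus strand). Bases at those gene starts were therefore not searched.

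One library stood apart from the rest. Values summed to between 561964 and 626371 FPKM in 35 libraries and to 808274 in control ZT12 replicate 2, and the lowest correlation between replicates, 0.949, was in control at ZT12. The acute-phase gene Saa1, chosen after its values were seen, exceeded 10000 FPKM in 3 libraries, which were IH ZT0 replicate 2, control ZT12 replicate 2 and control ZT16 replicate 3. Hepatocyte markers summed to between 38970 and 64830 FPKM in control and between 39820 and 57150 in IH, with medians of 49080 and 53280, and the highest control value was in control ZT12 replicate 2. Of these 6 markers, 2 were higher in IH at an unadjusted p under 0.05, against 1116 of the 13215 tested genes, and none was called. In bulk tissue, fewer cells of a type and less RNA per cell cannot be told apart. Since adipocytes also make fat by this pathway, their 5 markers were checked, and they summed to at most 0.890 FPKM in any control library and 0.312 in any IH library. The 5 Kupffer cell markers summed to between 18.6 and 163 FPKM in control, with the highest in control ZT12 replicate 2, and between 16.6 and 45.0 in IH, and 3 of 5 were lower in IH at an unadjusted p under 0.05, against 309 of the 13215 tested genes, with none called. Lists for endothelial cells (1 of 5 called, higher in IH), stellate cells, cholangiocytes, erythroid cells, pancreas and leukocytes had no other called gene. The part of these differences in the results was not tested.

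**Figure D1:**
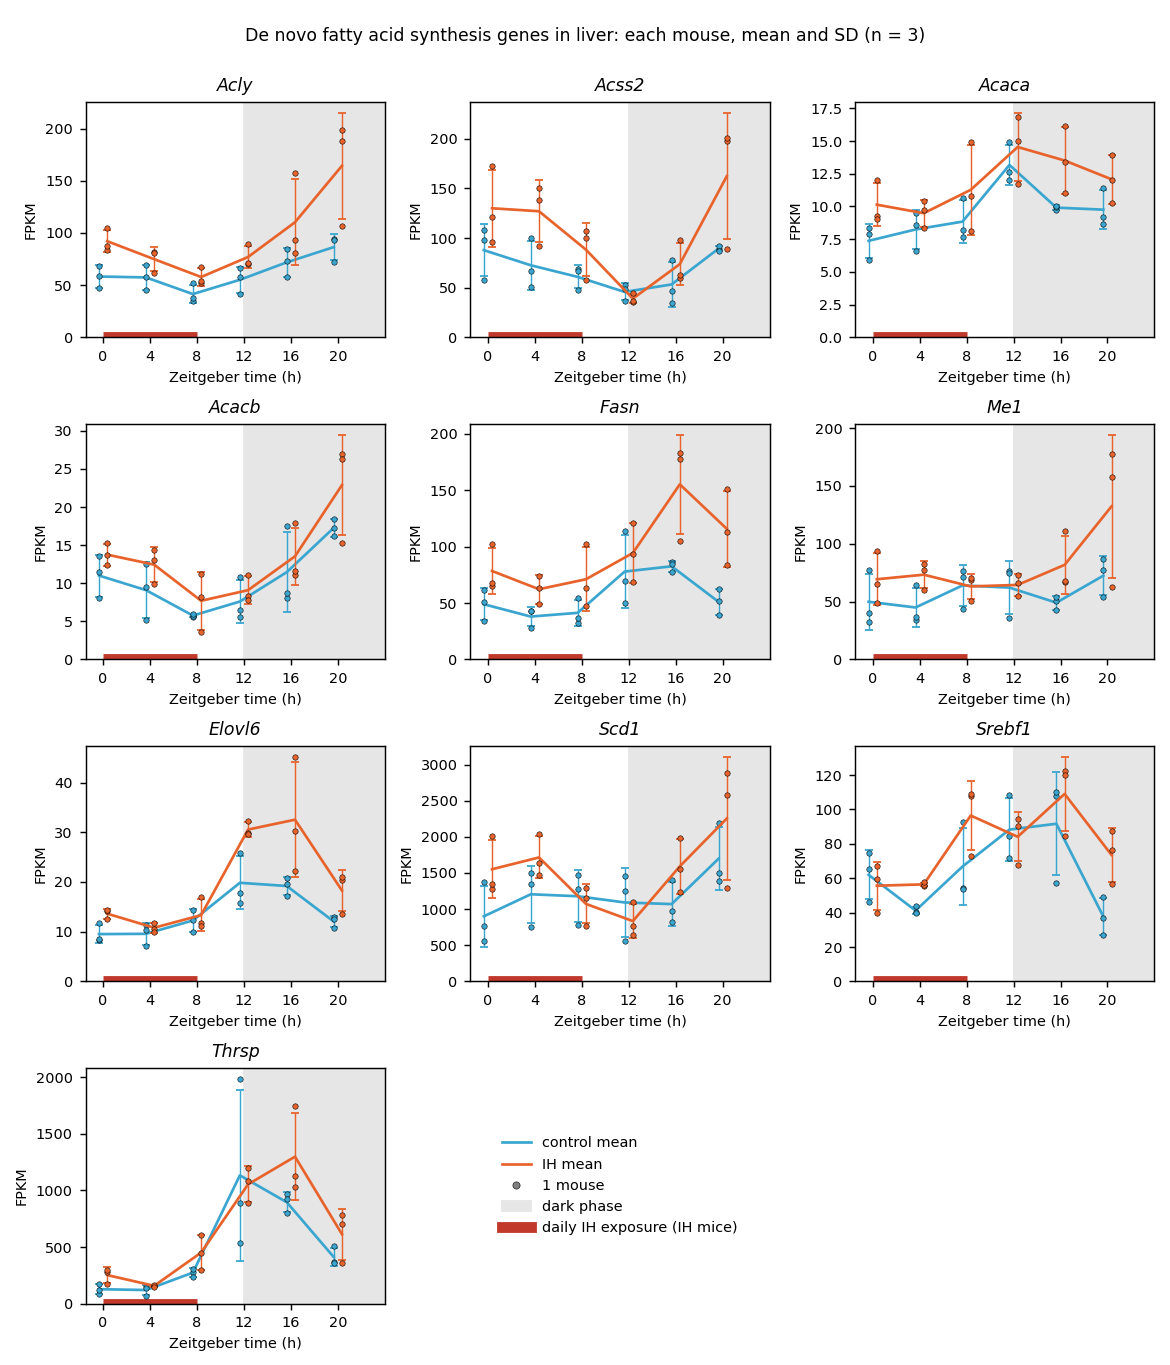
FPKM (y axis) of the 10 genes against Zeitgeber time in hours (x axis). Points are single mice, lines join the means and bars are the SD (n = 3 mice per condition and time point), with control in blue, IH in orange, the dark phase in grey and the daily exposure window of IH mice as a red bar. The IH mean lies above the control mean at all 6 time points for Acly, Acaca, Acacb, Fasn and Elovl6.

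Acetyl-CoA for the pathway comes from citrate through Acly and from acetate through the acetyl-CoA synthetase Acss2. In control mice, Acly measured 47.0, 59.1 and 68.7 FPKM at ZT0, 69.6, 45.0 and 57.5 at ZT4, and 34.8, 37.9 and 51.6 at ZT8. The night values of control were 41.9, 66.1 and 57.3 at ZT12, 57.5, 73.3 and 84.7 at ZT16, and 94.0, 93.1 and 72.1 at ZT20. Control mice were lowest at ZT8 and highest at ZT20. In IH mice Acly measured 84.1, 87.8 and 104 FPKM at ZT0, 82.1, 81.1 and 61.4 at ZT4, and 51.9, 67.2 and 54.3 at ZT8. At night the IH values were 70.4, 89.2 and 71.2 at ZT12, 93.0, 80.3 and 157 at ZT16, and 188, 106 and 199 at ZT20. The 3 IH mice lay above the 3 control mice at ZT0, ZT8, ZT12 and ZT20, and the groups overlapped at ZT4 and ZT16. The share of all tested genes with groups wholly apart was not computed. For each gene below, groups wholly apart are therefore a description of the values and not a test. The log2 difference over all time points was 0.58 ± 0.09 (SE), with an adjusted p of 0.00182 from limma, and it was the gene with the 5th smallest p of all 13215.

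Acss2 was more variable. Control mice ranged from 34.8 to 108 FPKM with a median of 67.0, and IH mice from 36.1 to 200.3 with a median of 97.3. At ZT20 the IH mice measured 198, 88.8 and 200.3 FPKM and the control mice 89.3, 92.1 and 86.7, so that 1 IH mouse fell within the control range. At ZT12 the IH mean was the lower one, at 39.0 ± 4.8 FPKM against 45.7 ± 8.5 in control (SD). The conditions overlapped at every time point. The log2 difference over all time points was 0.49 ± 0.14, adjusted p = 0.115. Leaving out the 6 libraries of ZT12 gave 0.63 and put it past the threshold, with an adjusted p of 0.0113.

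Both acetyl-CoA carboxylases make malonyl-CoA, Acaca for the cytosolic synthesis of fat and Acacb mainly at the mitochondrial surface, where malonyl-CoA restrains fatty acid oxidation. Acaca averaged 9.55 ± 2.21 FPKM in control and 11.8 ± 2.7 in IH (SD, 18 mice each), and Acacb 10.4 ± 4.6 and 13.2 ± 5.9. At ZT16 the control mice had Acaca at 9.71, 9.99 and 10.0 FPKM and the IH mice at 13.4, 11.0 and 16.1. At ZT0 they had 5.92, 8.34 and 7.86 against 12.1, 9.28 and 9.08. IH was wholly above control at these 2 time points and overlapped it at the other 4. Acacb overlapped at every time point, although the IH mean was higher at all 6. The differences of 0.28 ± 0.07 for Acaca (adjusted p = 0.0659) and 0.32 ± 0.12 for Acacb (adjusted p = 0.30) did not pass. Leaving out any one of IH ZT8 replicate 3, IH ZT12 replicate 3, control ZT8 replicate 3, control ZT12 replicate 2 and control ZT12 replicate 3 put Acaca past the threshold, with adjusted p from 0.028 to 0.0466.

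Fasn, the multifunctional enzyme that builds palmitate from acetyl-CoA and malonyl-CoA, showed the largest difference of the 10 genes. Control mice measured 34.1, 61.9 and 50.8 FPKM at ZT0, 42.9, 28.0 and 43.1 at ZT4, and 32.7, 36.9 and 54.3 at ZT8. At ZT12 they measured 50.1, 113.9 and 69.6, at ZT16 86.1, 84.4 and 77.1, and at ZT20 62.5, 51.3 and 39.3. The 113.9 was in the library with the high FPKM sum, and the control mice were otherwise highest at ZT16. The IH mice measured 102, 65.4 and 67.4 FPKM at ZT0, 74.4, 63.2 and 49.1 at ZT4, and 63.7, 102 and 47.2 at ZT8. They measured 93.5, 121 and 68.5 at ZT12, 177, 105 and 183 at ZT16, and 151, 83.9 and 113 at ZT20. IH was wholly above control at ZT0, ZT4, ZT16 and ZT20, with ratios of the means of 1.60, 1.64, 1.88 and 2.27, and overlapped it at ZT8 and ZT12. The log2 difference over all time points was 0.74 ± 0.13, adjusted p = 0.00219, and it stayed between 0.70 and 0.80 when each library was left out in turn.

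Malic enzyme (Me1) supplies NADPH to the synthase while turning malate into pyruvate. It ranged from 32.0 to 86.4 FPKM in control (median 53.8) and from 49.1 to 177 in IH (median 68.2). At ZT20 the IH mice measured 157, 62.2 and 177 FPKM and the control mice 86.4, 77.1 and 53.7. IH was wholly above control at ZT16 alone among the 6 time points, where the values were 66.7, 67.8 and 110.6 against 50.7, 42.4 and 53.9. The log2 difference of 0.47 ± 0.14 did not pass (adjusted p = 0.175).

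Palmitate is lengthened by Elovl6 and desaturated by Scd1, the stearoyl-CoA desaturase. Elovl6 in control measured 8.34, 8.55 and 11.7 FPKM at ZT0, 11.4, 7.12 and 10.3 at ZT4, and 9.97, 12.4 and 14.5 at ZT8. The control values at night were 17.8, 15.8 and 25.9 at ZT12, 17.2, 19.5 and 20.9 at ZT16, and 12.9, 12.5 and 10.7 at ZT20. IH mice measured 14.1, 12.5 and 14.3 FPKM at ZT0, 10.6, 9.94 and 11.9 at ZT4, and 11.7, 17.0 and 11.2 at ZT8. Their values at night were 29.8, 29.6 and 32.2 at ZT12, 30.3, 22.2 and 45.1 at ZT16, and 20.4, 13.5 and 20.9 at ZT20. The groups were fully apart, with IH above, at ZT0 and at the 3 time points from ZT12 to ZT20, and overlapped at ZT4 and ZT8. Elovl6 differed by 0.44 ± 0.09 over all time points, adjusted p = 0.0143.

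Scd1 had by far the highest mean of the 10 genes over the day, at the 99.5th percentile of the tested genes in control. At ZT12 alone Thrsp had the higher mean, with 1134 against 1093 FPKM in control and 1055 against 835 in IH. Scd1 ranged from 560.4 to 2198 FPKM in control, with a median of 1316, and from 638 to 2885 in IH, with a median of 1324. At ZT20 the IH mice measured 2885, 1290 and 2585 FPKM and the control mice 2198, 1504 and 1390 FPKM. The IH mean was the lower one at ZT8 and ZT12, with ratios to control of 0.910 and 0.764, and the groups overlapped at all 6 time points. The log2 difference of 0.32 ± 0.16 did not pass, with an adjusted p of 0.463.

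Srebf1 encodes SREBP-1, the transcription factor that activates most of the other genes here, and Thrsp encodes Spot 14, a small protein that promotes lipogenesis. Srebf1 measured 37.0, 48.9 and 27.3 FPKM in control and 87.4, 76.4 and 56.8 in IH at ZT20, and 40.4, 43.7 and 39.5 against 55.6, 56.2 and 57.6 at ZT4. IH mice were wholly above control at these 2 time points. At ZT0 and ZT12 the IH mean of Srebf1 was the lower one, with ratios of 0.898 and 0.953 and overlapping groups. Over the whole day Srebf1 differed by 0.34 ± 0.12 on the log2 scale, adjusted p = 0.262. Thrsp ranged from 65.2 to 1984 FPKM in control, and the highest value was again in control ZT12 replicate 2, beside 533 and 885 in the other 2 mice of that group. IH was above control without overlap at ZT0, with 281, 175 and 299.5 FPKM against 84.8, 174 and 121, and at ZT16, with 1124, 1030 and 1743 against 797, 969 and 922. The difference over all time points of 0.54 ± 0.15 had an adjusted p of 0.106, and without control ZT12 replicate 2 it was 0.63 with an adjusted p of 0.0106. Without that library the count of called genes over all time points was 5 of 10, by the addition of Acaca and Thrsp. Over all 13215 tested genes the count rose as well, from 47 to 157.

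Within a group, mice differed from each other across many of the 10 genes at once. In 8 of 36 libraries all 10 genes lay on the same side of their group mean, and in 15 of 36 at least 9 did. In IH at ZT20, replicate 1 had all 10 above and replicate 3 had 9 above, while replicate 2 had 1 above and an average log2 deviation of -0.52. In control at ZT0, replicate 1 had none above its group mean, with an average deviation of -0.41. Deviations within a group of 3 mice sum to zero and the genes come from the same libraries, so these counts are a description of the spread and have no test.

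The second question was when in the day the difference was present, since the exposure filled only the hours from ZT0 to ZT8. At single time points, with 3 mice per condition, no gene of the 10 was called by limma at any of the 6. The share of tested genes called higher in IH was 0.885% at ZT4, 0.272% at ZT12, 0.00757% at ZT8 and at ZT16, and 0% at ZT0 and ZT20. The highest fitted differences were those of Fasn at 1.15 ± 0.31 (adjusted p = 0.517) and Srebf1 at 0.96 ± 0.26 (adjusted p = 0.517) at ZT20, and of Thrsp at 1.01 ± 0.37 (adjusted p = 0.468) at ZT0. At an unadjusted p under 0.05, 6 of 10 were higher in IH at ZT0 against 3.22% of tested genes, 3 at ZT4 against 12.8%, and 2 at ZT8 against 3.19%. At night the counts were 1 at ZT12 against 12.9%, 4 at ZT16 against 2.47%, and 6 at ZT20 against 3.68%. The gene behind the single count at ZT12 was Elovl6, and Fasn was counted at each of the other 5 time points. The median difference over the 10 genes was lowest at ZT12, at 0.12, and highest at ZT20, at 0.65. The ZT12 differences moved with the scaling. With FPKM rescaled to a common sum they were higher, at 0.47 for Fasn and 0.09 for Srebf1, against 0.32 and -0.06 in the main fit. With median-of-ratios scaling they were lower, at 0.24 for Fasn and -0.14 for Srebf1.

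**Figure D2:**
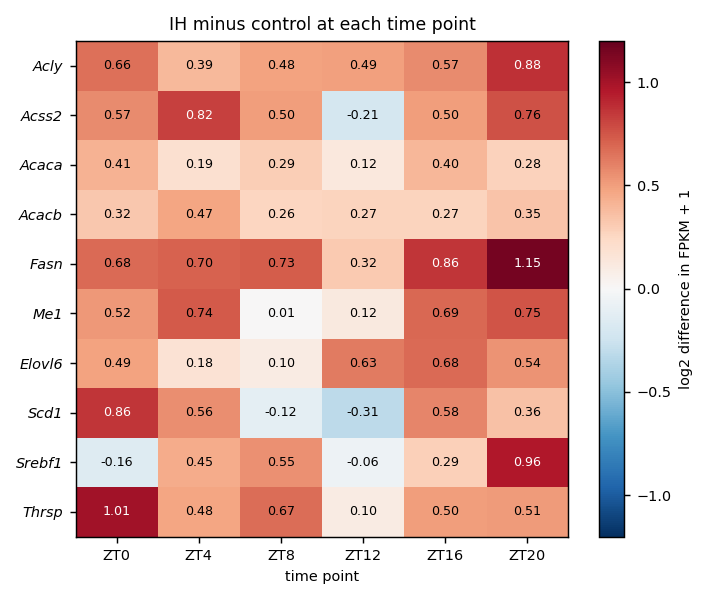
Fitted difference in log2(FPKM + 1), IH minus control, for each gene (rows) at each time point (columns), with red for higher and blue for lower in IH. Of the 60 cells, negative values appear for Acss2, Scd1 and Srebf1 at ZT12, for Scd1 at ZT8 and for Srebf1 at ZT0, and no single cell passed the adjusted threshold. With FPKM rescaled to a common sum, Srebf1 at ZT12 was positive (0.09) and Me1 at ZT8 negative (-0.02).

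Taken over ZT4 and ZT8, the sampled times that lie within or at the end of the exposure, none of the 10 genes was called, against 1.63% of tested genes called higher. Here 5 of 10 had an unadjusted p under 0.05, against 13.1% of tested genes, with Fasn at 0.72 ± 0.22 (adjusted p = 0.0846), Acss2 at 0.66 ± 0.23 (adjusted p = 0.131) and Srebf1 at 0.50 ± 0.18 (adjusted p = 0.157). Acly and Thrsp were the other 2. Without control ZT12 replicate 2, which takes part in the shared estimate of spread, Fasn was called over ZT4 and ZT8 with an adjusted p of 0.0353. The same fit called 1002 of the 13215 tested genes, against 269 with that library. Over ZT12, ZT16 and ZT20, in the hours after the exposure, Elovl6 was called at 0.62 ± 0.12 (adjusted p = 0.0398), which makes 1 of 10 against 0.0757% of tested genes. At an unadjusted p under 0.05 the count was 6 of 10 against 7.63%, and Acly followed at 0.64 ± 0.14 (adjusted p = 0.0603) and Fasn at 0.78 ± 0.18 (adjusted p = 0.111). The call of Elovl6 at these hours was near the threshold, and leaving out any of 16 of the 36 libraries ended it, with adjusted p from 0.052 to 0.125. It was also lost with no filter, median-of-ratios scaling, quantile normalization, without the libraries with high Saa1, without those of ZT12, and with sample weights, which called Acly instead.

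No gene of the 10 differed between the night and the exposure hours by the test of the difference itself, which 0.242% of tested genes passed in either direction. For Elovl6 the night difference exceeded that at ZT4 and ZT8 by 0.48 ± 0.19 (adjusted p = 0.263), for Acly by 0.21 ± 0.22 (adjusted p = 0.737), and for Fasn by 0.06 ± 0.29 (adjusted p = 0.957). Acss2 leaned the other way, at -0.31 ± 0.30 (adjusted p = 0.709). The median over the 10 genes was 0.01, with 5 positive and 5 negative.

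**Figure D3:**
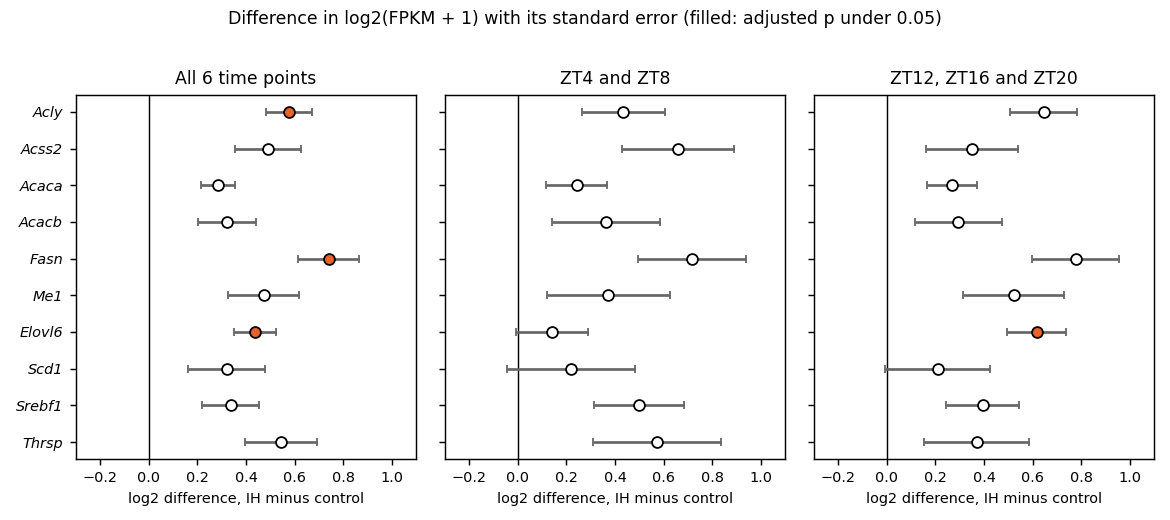
Difference in log2(FPKM + 1), IH minus control (x axis), with its SE for the 10 genes (rows), over all 6 time points (left), ZT4 and ZT8 (middle) and ZT12 to ZT20 (right). Filled points have an adjusted p under 0.05, and all 30 points lie above 0, from 0.14 for Elovl6 at ZT4 and ZT8 to 0.78 for Fasn at ZT12 to ZT20.

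The next comparison concerned the daily rhythm of the pathway. A 24-h cosine passed a nominal P of 0.01 in control for 7 of 10 genes, against 20.0% of tested genes, and in IH for 9 of 10, against 39.9%. The 6 enzyme genes Acly, Acss2, Acaca, Acacb, Fasn and Elovl6 and the regulator Thrsp were rhythmic in both conditions. Thrsp had the largest rhythm, with a fitted peak-to-trough ratio of 11.1 in control and 8.00 in IH. Among the enzymes, the ratio for Elovl6 was 2.16 in control and 2.89 in IH, and for Acss2 1.92 and 3.15. Srebf1 missed the limit in control (adjusted p = 0.0673) and passed in IH (adjusted p = 0.00485), as did Scd1 (adjusted p = 0.869 and 0.011). Me1 passed in neither condition, with an adjusted p of 0.728 in control and 0.131 in IH. Acaca was close to the limit in IH (adjusted p = 0.0175), and leaving out any of 8 of the 18 IH libraries took its nominal P past 0.01. In control, Acss2 was lost without replicate 2 of ZT0 or of ZT12, and Srebf1 passed without replicate 2 or 3 of ZT0 or replicate 3 of ZT20. Scd1 was lost in IH without replicate 1 or 3 of ZT12. Leaving out all 6 libraries of ZT12 left 5 of the 10 genes rhythmic in control and 6 in IH, against 2604 and 4978 of the 13215 tested genes.

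The fitted peaks were spread over the night, from 12.6 to 23.9 h, and no grouping of them was tested. In control, Srebf1 peaked at 12.6 ± 1.2 h (SE), Acaca at 13.5 ± 0.9 h, Elovl6 at 13.9 ± 0.5 h, Thrsp at 14.4 ± 0.3 h and Fasn at 15.4 ± 0.9 h after lights on. Neighbours in this order differed by about their combined error or less. Acly followed at 19.4 ± 0.8 h, Acacb at 20.4 ± 0.7 h and Acss2 at 23.8 ± 1.0 h. In IH, Srebf1 peaked at 13.3 ± 0.8 h, Acaca at 14.5 ± 1.0 h, Thrsp at 14.8 ± 0.3 h, Elovl6 at 15.0 ± 0.5 h and Fasn at 16.9 ± 0.8 h. Thrsp and Elovl6, which lay within their errors, thus changed places. Acly stood at 19.6 ± 0.6 h, Acacb at 20.8 ± 0.8 h and Acss2 at 23.9 ± 0.7 h. Scd1 peaked at 22.1 ± 1.0 h in IH, and its phase in control was not defined (SE 5.76 h).

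Whether the rhythm itself differed was tested in 1 model of both conditions, in which IH could shift the cosine in phase or size. None of the 10 genes passed, with adjusted p from 0.92 to 0.986, and the same test called 0% of tested genes. Among the 10, the lowest unadjusted p values were 0.104 for Elovl6, 0.131 for Scd1 and 0.225 for Acss2, so none was under 0.05, and with the time point as a factor in place of the cosine the count was also 0 of 10. The fitted phase in IH minus that in control was 0.18 ± 1.05 h for Acly, 0.34 ± 0.46 h for Thrsp, 1.06 ± 0.71 h for Elovl6 and 1.51 ± 1.15 h for Fasn. The log2 amplitude was larger in IH by 0.44 ± 0.23 for Scd1, 0.36 ± 0.20 for Acss2 and 0.21 ± 0.12 for Elovl6. The amplitude of Thrsp, at 1.74 in control, differed by -0.24 ± 0.20. That Scd1 and Srebf1 passed the rhythm test in IH and not in control is therefore not shown to be a difference between the conditions.

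**Figure D4:**
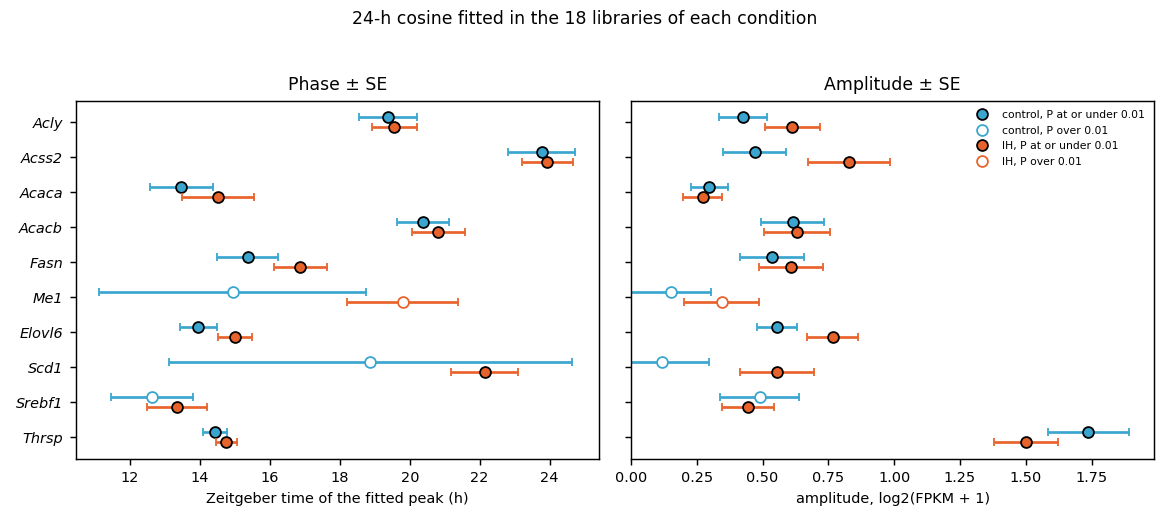
Zeitgeber time of the fitted peak in hours (left) and log2 amplitude of the 24-h cosine (right) for the 10 genes in control (blue) and IH (orange), with SE from 18 libraries per condition. Filled points have P at or under 0.01. Peaks of Srebf1, Acaca, Elovl6, Thrsp and Fasn lie between 12.6 and 16.9 h and those of Acly, Acacb and Acss2 between 19.4 and 23.9 h.

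The wider pathway was described with 30 further genes, all of which were tested. Their list too was chosen with earlier results of these data known. Over all time points 26 of 30 had a positive difference, against 68.5% of all tested genes, 2 were called higher in IH, against 0.303%, and none was called lower. The called genes were Pklr, the liver pyruvate kinase, at 93.5 ± 34.8 FPKM in control and 156 ± 60 in IH (SD, 18 mice each), a log2 difference of 0.71 ± 0.12 (SE, adjusted p = 0.00182), and Mid1ip1, a paralogue of Thrsp that binds acetyl-CoA carboxylase, at 33.3 ± 9.4 and 46.9 ± 9.9 FPKM, a log2 difference of 0.51 ± 0.11 (adjusted p = 0.0189). At an unadjusted p under 0.05, 12 of 30 were higher and none lower, against 1116 and 309 of the 13215 tested genes. In the group that supplies carbon and NADPH (with G6pdx and Pgd), 6 of 6 were positive and 1 was called, and among 8 genes of esterification to triglyceride all were positive and none was called. Of 7 other elongases and desaturases 6 were positive and none was called, and the gene for malonyl-CoA decarboxylase did not pass. Of the 8 regulators 5 were positive, and Mid1ip1 was the one called. The genes named next were chosen after their values were seen. ChREBP (Mlxipl) differed by 0.06 ± 0.07, liver X receptor alpha (Nr1h3) by -0.04 ± 0.04 and the SREBP escort protein Scap by 0.05 ± 0.06. None of these 3 passed, with adjusted p from 0.74 to 0.772. Of the 2 SREBP anchors, Insig1 differed by 0.33 ± 0.11 (adjusted p = 0.248) and Insig2 by -0.18 ± 0.12 (adjusted p = 0.584).

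**Figure D5:**
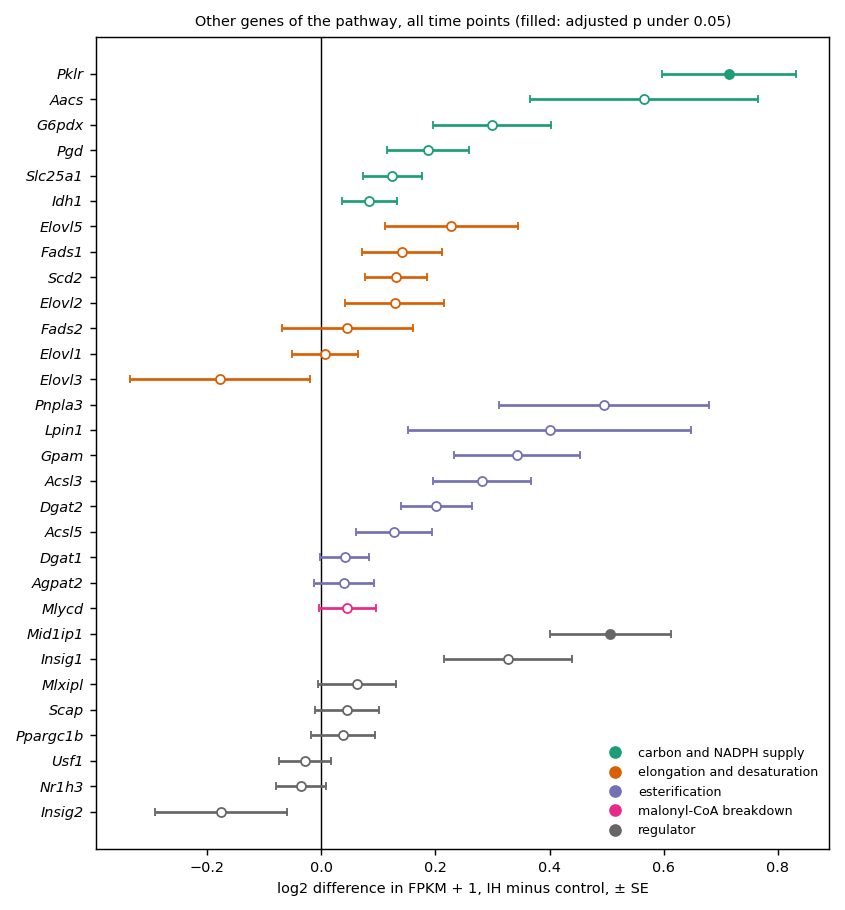
Difference in log2(FPKM + 1) over all time points, IH minus control (x axis), with its SE for 30 further genes of the pathway, coloured by role. Pklr and Mid1ip1, filled, had an adjusted p under 0.05, and 4 genes (Elovl3, Insig2, Nr1h3 and Usf1) lie below 0.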

How the data were processed

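Liver RNA of 36 male mice, 3 per condition and time point, was sequenced as stranded poly-A libraries with paired-end reads. Per the labels, TopHat2 2.1.1 and Cufflinks 2.2.1 were used with mm10, and the deposited values are the FPKM the authors made for each library. The gene annotation and strand settings of Cufflinks are not given in the sources used here. The depth of the libraries is unknown, since no counts were used.

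Each condition had its own table with equal column names, and the condition was taken from the names of the tables. Of 24346 symbols, the 280 on several rows were left out. Tests used limma 3.58.1 in R 4.3.3 on log2(FPKM + 1) with an intensity trend, for 13215 genes averaging 0.1 FPKM or more, so fold changes understate those of low genes. The whole-day comparison had time point as a factor, and single time points came from a fit of 12 group means (Benjamini-Hochberg, 0.05). Rhythms were tested within 18 libraries per condition. Mice were separate animals, and cage mates were not known. Same-numbered residuals correlated by 0.0538 on average over 18 pairs (6 above 0.1), and by 0.294, 0.266 and 0.136 at ZT12. The numbers were not used to pair mice in the main fit, and a shared effect at ZT12 is not excluded by the average. Named genes are the 10 members, other pathway genes called over all time points, and any said to be chosen after their values were seen. The members and lists were chosen with earlier results of these data known. A gene of the wider pathway list is not reported here and was left out of its counts. Motifs were searched on both strands of RefSeq promoter windows. The steps were tested on simulated data. Figures used matplotlib.

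Alternatives were another pseudocount, 2 filters, 3 scalings, a replicate block, sample weights, no trend, other rhythm tests, leaving out each library, and, chosen after seeing the data, leaving out the 3 libraries with high Saa1 or the 6 of ZT12.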

Additional observations from a re-analysis of the deposited data

How the results depend on the processing

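All 10 genes kept a positive difference over all time points under each of the 11 alternatives run and without each library, and Acly, Fasn and Elovl6 stayed called in all of them. The number of the 10 genes called over all time points (3) became 6 with sample weights and 7 without the libraries of ZT12, and was 3 to 5 when each library was left out. At ZT12 to ZT20 (1) it became 0 with no filter, median-of-ratios scaling, quantile normalization, without the libraries with high Saa1 or without those of ZT12, 2 with a filter at a mean of 1 FPKM, 3 with FPKM rescaled to a common sum, and 0 to 2 without single libraries, while sample weights called Acly in place of Elovl6. At ZT4 and ZT8 (0) it became 4 with sample weights, 2 without the libraries with high Saa1 and 1 without those of ZT12, and was 0 to 1 without single libraries. Of the 13215 tested genes, these settings called 2758, 1362 and 1098 in that order, against 269 in the main fit. For single time points (0), sample weights gave 1 at ZT20 (Srebf1), against 29 of the 13215 tested genes. The 6 libraries of the time point alone gave 1 at ZT4 (Srebf1), against 729 of 13215. Leaving out control ZT12 replicate 3 gave 1 at ZT12 (Elovl6, 0 to 1 over single libraries), against 3122 of 13215. Without single libraries the cosine was passed by 6 to 8 of the 10 genes in control and 7 to 9 in IH. Of the 13215 tested genes, 2290 to 3575 passed in control and 4722 to 5601 in IH. Srebf1 passed the rhythm limit in control with median-of-ratios scaling, sample weights, an F test over the 6 time points or a spread shared by both conditions. Acaca was lost in IH with sample weights, that F test, without the libraries with high Saa1 or without those of ZT12. In control it was lost with a common sum or without ZT12. Acss2 was lost in control with the F test, and without ZT12 in both conditions, as was Scd1 in IH. The cause of these changes was not tested.

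Over all tested genes, the count called over all time points was 47, and it was 27 with a common sum, 314 with sample weights, 183 without the libraries with high Saa1, 607 without those of ZT12 and 28 to 157 without single libraries (157 without control ZT12 replicate 2). At ZT4 and ZT8 it was 269, and 57 to 2758 under the alternatives (44 to 1002 without single libraries), and at ZT12 to ZT20 it was 11, and 2 to 17 (2 to 49). It was 153 at ZT4, and 49 to 3253 (22 to 799), 102 at ZT12, and 0 to 220 (0 to 3122, and 1 with the replicate block), and 32 for the night against ZT4 and ZT8, and 11 to 1151 (0 to 262). The cosine in control passed 2648 genes, and 2412 to 4170. With a spread shared by both conditions it passed 3762 genes in control and 4166 in IH, against 2648 and 5273. With the time point as a factor the interaction called 18 genes in place of 0. Median-of-ratios scaling moved the calls over all time points from 40 higher of 47 to 22 of 33, and those at ZT4 and ZT8 from 215 of 269 to 105 of 201 (quantile normalization 25 of 34 and 148 of 275). With the replicate number as a replicate block, 3 genes were called over all time points, 1 at ZT12 to ZT20, 7 by the cosine in control and 9 in IH, as without it, and the block changed no other count of the 10 genes. Without counts, the precision for single libraries is not known.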
